A study of Mus musculus with 2 samples.

Results

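The 54 genes described here encode parts of the bone morphogenetic protein (BMP), growth and differentiation factor (GDF), activin and TGF-beta pathways. They comprise 18 ligands, 12 receptors and co-receptors, 12 extracellular antagonists and modulators, 8 Smads and 4 Id genes. The genes were chosen by name, with earlier results of these data known. All 54 had a row among the 43346 mouse gene rows of the deposited tables. RNA longer than 200 nt was sequenced from limbs of B6NCrl mouse embryos at 15.5 days of development, with male and female embryos pooled. Replicate 1 was a pool of 78 embryos and replicate 2 a pool of 62, and each library was made from 10 ng of RNA. All samples belong to 1 group without a treatment or a control, and the labels do not name fore- or hindlimbs. The design therefore allows no test between conditions. It allows a description of the level of each gene, of the ratios between related genes, of their transcripts, and of the spread between the pools.

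Ligands of this family are secreted dimers that assemble type I and type II receptor kinases on the cell surface. The activated receptors phosphorylate receptor-regulated Smads, which join Smad4 and move to the nucleus. Smad1, Smad5 and Smad9 carry BMP signals, Smad2 and Smad3 carry TGF-beta and activin signals, and Smad6 and Smad7 inhibit signalling at the receptors. In the developing limb the family is known for roles in cartilage condensation, joint formation, loss of the tissue between the digits, tendon formation and the limit on muscle growth.

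Levels are given as TPM, a scale that divides the reads of a transcript by its length and fixes the total of each library, so that genes can be compared. The libraries held 35104685 and 41757268 expected counts in replicates 1 and 2. Limb markers were present: Msx1 was at 131 and 113 TPM, Prrx1 at 86.3 and 94.2 TPM, and 10 of 10 listed limb mesenchyme genes were at or above 1 TPM in both libraries. Of 6 genes typical of other organs, Cdx2 had no reads and Alb had the highest level, at 2.14 and 10.3 TPM. The pools differed in marker levels. All 10 skeletal muscle markers were higher in replicate 1, with a summed level of 6578 and 1970 TPM, and so were 7 of 8 osteoblast markers, at 778 and 411 TPM. Of the 10 limb mesenchyme and position markers, 8 were higher in replicate 2, against 50.0% of all genes compared. Among these 8 were Tbx4, at 12.59 and 18.02 TPM, and Pitx1, at 19.11 and 30.78 TPM. The other 2, Tbx5 at 16.04 and 12.02 TPM and Msx1, were higher in replicate 1. Whether the pools differed in their share of fore- and hindlimbs was not tested. In such bulk tissue, fewer cells of a type and less RNA per cell cannot be told apart.

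Most of the 54 genes were detected well above the counting limit. At least 1 TPM was reached in both libraries by 51 of them, against 34.6% of all gene rows, and at least 10 TPM by 31 of them (57.4%), against 21.3% of all rows. The exceptions at the lower threshold were Gdf6, Gdf7 and Smad9. Together the 54 genes summed to 2558 and 2584 TPM in replicates 1 and 2. Antagonists and modulators made up 982 and 989.5 TPM of this, Id genes 786 and 783 TPM, ligands 376 and 378.5 TPM, receptors 277 and 282 TPM and Smads 138 and 151 TPM. The sum of each group thus differed little between the pools. The highest gene carried most of it among the antagonists and the Id genes, and 22.1% to 28.2% of it in the other groups.

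**Figure D1:**
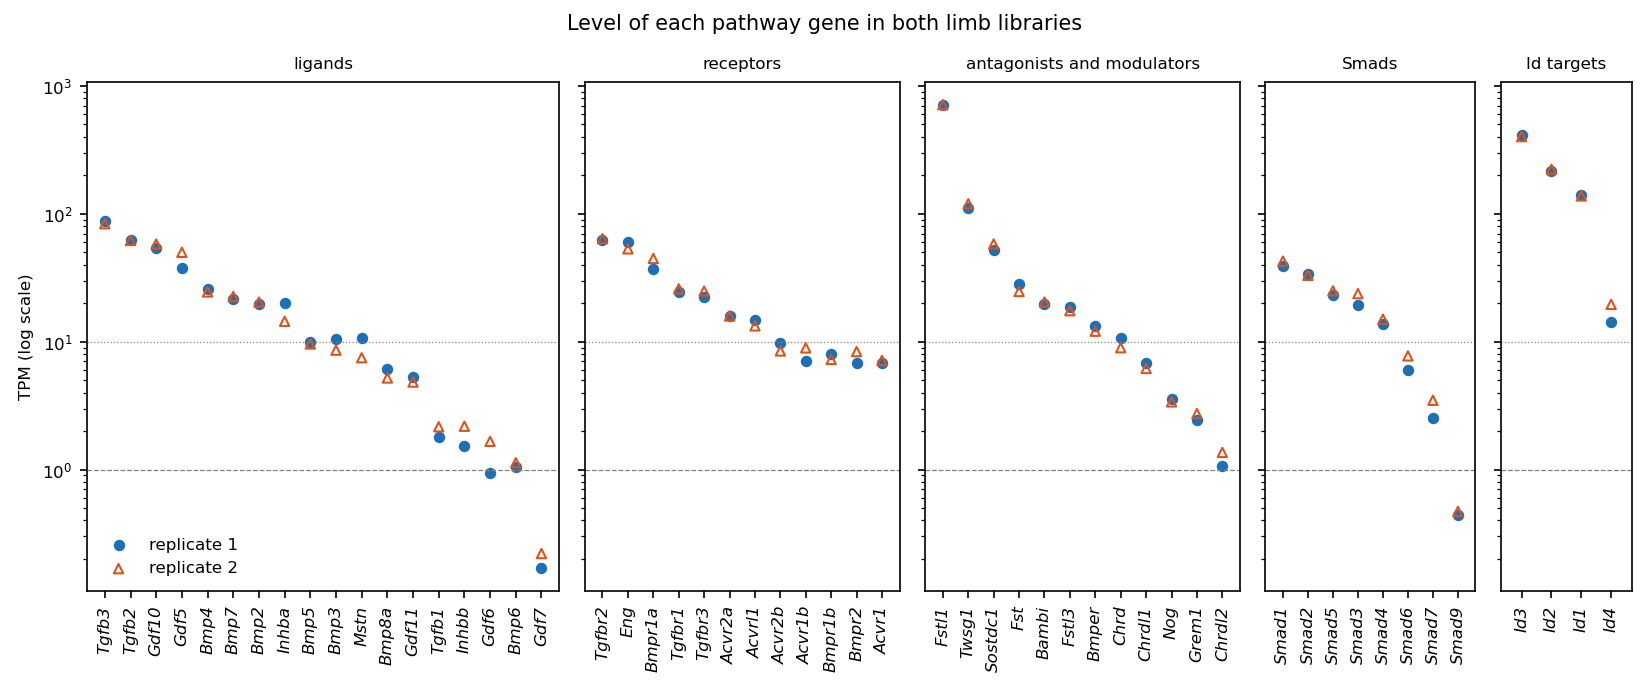
Level of each of the 54 genes in TPM on a log scale, by role, with replicate 1 as filled circles and replicate 2 as open triangles; the dotted and dashed lines mark 10 and 1 TPM. Fstl1 stands highest at 714 TPM in both libraries, and Gdf7 and Smad9 lie under the lower line in both.

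Among the ligands, Tgfb3 had the highest level, at 87.8 TPM in replicate 1 and 83.6 in replicate 2. Tgfb2 followed at 62.2 and 61.9 TPM, and Gdf10, a member of the family also called BMP3B, at 53.9 and 58.0 TPM. These 3 genes made up 54.2% and 53.8% of the summed ligand level, and their ranges over the libraries did not overlap. Ratios between genes are given after adding 0.1 TPM to each, which lowers the fold where a gene is near that level. Tgfb1, the third TGF-beta gene, was at only 1.78 and 2.16 TPM. Tgfb2 was thus 30.2-fold higher than Tgfb1 on average, with a log2 ratio of Tgfb1 to Tgfb2 of -5.05 and -4.78 in the replicates. The level of Tgfb2 depends on which transcripts are counted: on protein-coding transcripts alone it was 31.2 and 32.9 TPM, below Gdf10 and Gdf5, and 17.8-fold above Tgfb1.

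Gdf5, which marks and patterns forming joints, was the next ligand. Its level was 37.8 and 50.0 TPM. Its relatives Gdf6 and Gdf7, which also act in joints and tendons, were far lower. Gdf6 was at 0.94 and 1.66 TPM on 72 and 155 counts, and Gdf7 at 0.17 and 0.22 TPM on 5 and 8 counts, close to the limit of 3 counts used here for a gene with no reads. With 0.1 TPM added, the Gdf5 level was 36.4-fold that of Gdf6 in replicate 1 and 28.5-fold in replicate 2, a mean log2 ratio of 5.01, which was 4.29 with 1 TPM added and 5.11 with 0.01.

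Bmp4, Bmp7 and Bmp2, the BMP ligands best known from limb patterning and skeletal formation, lay close together. Bmp4 was at 25.6 and 24.5 TPM, Bmp7 at 21.4 and 22.6 TPM and Bmp2 at 19.6 and 20.4 TPM. The Bmp4 level exceeded that of Bmp2 by 1.25-fold on average, which falls to 1.1-fold on coding transcripts, so this pair was under 1.5-fold apart in both libraries. Inhba, which encodes the activin A subunit, was at 20.0 and 14.4 TPM and overlapped Bmp2. Bmp5 at 9.99 and 9.59 TPM, Bmp3, an inhibitory ligand abundant in bone, at 10.5 and 8.58 TPM, and Mstn, the muscle growth inhibitor myostatin, at 10.7 and 7.49 TPM also overlapped one another.

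The remaining ligands were low. Bmp8a was at 6.06 and 5.20 TPM and Gdf11, an axial patterning factor closely related to Mstn, at 5.28 and 4.83 TPM. Inhbb, the activin B subunit, was at 1.53 and 2.18 TPM and Bmp6, a close relative of Bmp7, at 1.05 and 1.13 TPM. The ranges of neighbouring genes overlapped at 7 places in the order of the 18 ligands, all from Bmp2 downward. The Bmp8a value is uncertain because its transcript shares a run of 182 identical bases with that of its copy Bmp8b. Bmp6 is uncertain as well: its 54 and 71 counts lie at a locus where Txndc5, at 301 and 284 TPM, overlaps its exons on the opposite strand, and whether counting used strand is not given in the sources used here.

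Among the receptors, Tgfbr2, the type II receptor for TGF-beta, was highest at 62.6 and 64.0 TPM. Its type I partner Tgfbr1 was at 24.6 and 25.9 TPM, so that Tgfbr2 stood 2.50-fold above Tgfbr1 with nearly the same ratio in both libraries. Eng, an endothelial co-receptor, was at 60.5 and 53.2 TPM, and Tgfbr3, the co-receptor betaglycan, at 22.5 and 24.9 TPM. Tgfbr2, Eng and Bmpr1a together held 57.9% and 57.4% of the summed receptor level. The upper end of the group thus held receptors of both the TGF-beta and the BMP branch.

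Bmpr1a, a type I receptor for BMPs, was at 37.1 and 44.7 TPM. Bmpr1b, the type I receptor used by Gdf5 in cartilage, was at 7.94 and 7.26 TPM, which placed Bmpr1a 4.62-fold higher in replicate 1 and 6.09-fold higher in replicate 2. Acvrl1, the endothelial type I receptor ALK1, was at 14.9 and 13.3 TPM. The type II receptors shared by activins and BMPs were at 16.0 and 15.9 TPM for Acvr2a and at 9.84 and 8.46 TPM for Acvr2b. Acvr1b, the activin type I receptor, was at 7.09 and 8.94 TPM, Bmpr2, the BMP type II receptor, at 6.76 and 8.36 TPM, and Acvr1, a BMP type I receptor, at 6.86 and 7.13 TPM. The last 5 receptors in the order, from Acvr2b down to Acvr1, overlapped their neighbours and were not separated, as was the case for Tgfbr1 and Tgfbr3. Eng and Acvr2a overlap exons of Fpgs and Orc4 on the opposite strand, at 29.5 and 27.6 TPM and at 74.3 and 75.3 TPM, respectively.

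Extracellular antagonists and modulators spanned the widest range. Fstl1, a secreted follistatin-like glycoprotein, was the highest of all 54 genes at 714 TPM in each library, and ranked 174th among all gene rows. It alone made up 72.8% and 72.2% of the summed level of its group. Twsg1, which acts with chordin on BMPs, followed at 111 and 120 TPM, and Sostdc1, a secreted BMP and Wnt antagonist of epithelia, at 51.9 and 58.1 TPM. Fst, the activin binder follistatin, was at 28.3 and 24.7 TPM, and its relative Fstl3 at 18.8 and 17.5 TPM. Bambi, a membrane pseudoreceptor without a kinase, was at 19.9 and 20.4 TPM and Bmper, a chordin-like modulator of BMPs, at 13.2 and 12.1 TPM. No neighbours in the order of these 12 genes overlapped.

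The classical BMP antagonists were at the low end. Chrd, chordin, was at 10.6 and 8.96 TPM and Chrdl1, chordin-like 1, at 6.82 and 6.17 TPM. Nog, noggin, which binds BMPs and is needed for joints, was at 3.59 and 3.38 TPM, and Grem1, gremlin, a BMP antagonist of the limb bud mesenchyme, at 2.44 and 2.74 TPM. Nog was 1.45-fold above Grem1 in replicate 1 and 1.23-fold above it in replicate 2. Chrdl2 was lowest at 1.07 and 1.36 TPM on 33 and 52 counts.

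Within the Smads, the BMP branch was led by Smad1 at 38.8 and 42.6 TPM and Smad5 at 23.1 and 25.0 TPM, whereas Smad9 was at 0.44 and 0.47 TPM on 52 and 67 counts. Smad1 stood 1.69-fold above Smad5. Smad5 stood 43.5-fold above Smad9 with 0.1 TPM added, a mean log2 ratio of 5.44, which was 4.10 with 1 TPM added and 5.69 with 0.01. The order of Smad1 and Smad5 held per length: counts not divided by length gave a log2 ratio of -0.34 in place of 0.76. In the TGF-beta branch Smad2 was at 33.9 and 33.0 TPM and Smad3 at 19.4 and 23.8 TPM, where it overlapped Smad5. The common partner Smad4 was at 13.6 and 15.0 TPM. Of the inhibitory Smads, Smad6 was at 5.99 and 7.74 TPM and Smad7 at 2.53 and 3.48 TPM, so Smad6 was 2.25-fold higher.

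The Id genes encode helix-loop-helix proteins that lack a DNA-binding region and inhibit basic helix-loop-helix factors, and they are widely read as direct BMP targets. Id3 was highest at 414 and 402 TPM. Id2 was at 217 and 223 TPM and Id1 at 141 and 138 TPM, while Id4 was at 14.3 and 19.6 TPM. The order Id3, Id2, Id1, Id4 was the same in both libraries without overlap. Id3 was 1.86-fold above Id2, 2.92-fold above Id1, and 28.8-fold and 20.4-fold above Id4 in replicates 1 and 2.

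These paralogous genes can be told apart by sequence, which matters for ratios between them. The most alike window of 60 coding bases across the 4 Id genes is shown because it is where reads of the family could be confused. It is given from the leading coding transcript of each gene on GRCm38, with capitals for bases that differ from Id3. The windows lie in an exon's coding part at chr2:152736587-152736646 on the plus strand (Id1), chr12:25095774-25095833 on the minus strand (Id2), chr4:136144071-136144130 on the plus strand (Id3) and chr13:48261762-48261821 on the plus strand (Id4).
Id3: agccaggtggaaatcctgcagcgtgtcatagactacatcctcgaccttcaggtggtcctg
Id1: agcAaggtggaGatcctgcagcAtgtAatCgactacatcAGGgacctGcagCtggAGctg
Id2: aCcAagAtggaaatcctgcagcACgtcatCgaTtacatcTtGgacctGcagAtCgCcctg
Id4: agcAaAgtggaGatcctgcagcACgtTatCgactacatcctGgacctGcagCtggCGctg
Id1 and Id4 differed from Id3 at 12 bases each and Id2 at 13 bases of the 60. Over whole leading transcripts, the longest run of identical bases was 12 between Id1 and Id3, 19 between Id2 and Id3 and 14 between Id3 and Id4. Across the 24 gene pairs compared here it ranged from 11, for Eng and Tgfbr3, to 25, for Bmp7 and Bmp6. All these runs are much shorter than the 182 shared by Bmp8a and Bmp8b.

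The ratios between related genes were mostly stable from pool to pool. Of 24 pairs, 18 were over 1.5-fold apart in the same direction in both libraries. The median absolute shift of a log2 ratio between the libraries was 0.17. It exceeded 0.5 for 2 pairs. Inhba over Inhbb went from 12.3-fold to 6.37-fold, and Gdf6 over Gdf7 from 3.85-fold to 5.50-fold with 0.1 TPM added. Both pairs hold a low gene, Inhbb on 142 and 247 counts and Gdf7 on 5 and 8 counts. Bmp7 over Bmp6 and Smad5 over Smad9 shifted by -0.025 and 0.036. Their low genes had 54 and 71 counts (Bmp6) and 52 and 67 counts (Smad9). The part of low counts in the shifts was not tested. The mean log2 ratio of Gdf6 over Gdf7, 2.20, was 0.93 with 1 TPM added and 2.63 with 0.01, so its size depends on that choice. The pairs that did not reach 1.5-fold in both libraries were Bmp4 and Bmp2, Tgfb2 and Tgfb3, Nog and Grem1, Chrdl1 and Chrd, Fst and Fstl3, and Smad2 and Smad3. On coding transcripts alone the pair of Tgfb2 and Tgfb3 moved most, from 1.38-fold to 2.67-fold in favour of Tgfb3.

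**Figure D2:**
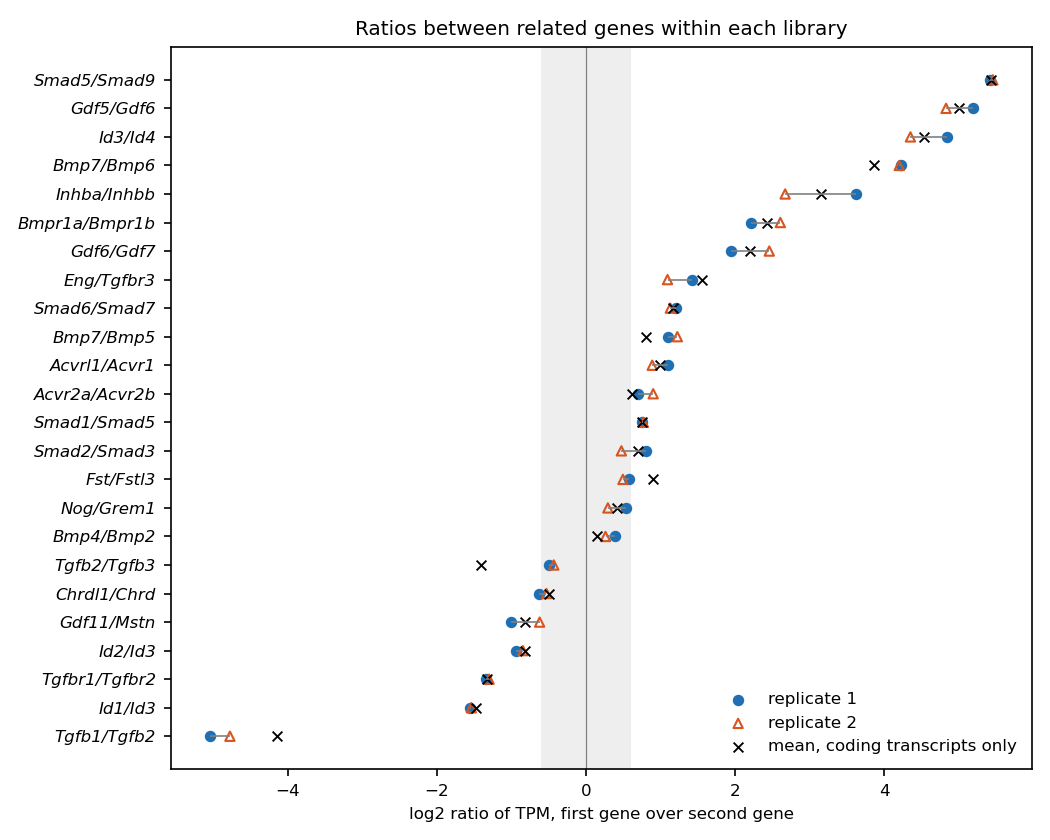
Log2 ratio of TPM, named gene over its relative, for the 24 pairs in replicate 1 (filled circles) and replicate 2 (open triangles), with the mean ratio on coding transcripts alone as crosses; the grey band is under 1.5-fold. Smad5 over Smad9 and Gdf5 over Gdf6 lie farthest to the right, and the cross of Tgfb2 over Tgfb3 lies to the left of its points.

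Differences between the pools were expressed as log2 of replicate 2 over replicate 1, after adding 0.1 TPM and centring on the median gene, for genes with a mean of at least 1 TPM. Of the 54 genes 52 could be compared, all but Gdf7 and Smad9. A gene was called when its difference exceeded the 95th percentile of genes of like level. Such a call was made for 2 of 52 (3.85%), against 5% of all 15571 genes compared, and 1 of 52 (1.92%) was over 1.5-fold apart, against 8% of all. The median difference was 0.07 over the 52 genes, against 0 over all genes, and the absolute difference had a median of 0.14, against 0.13. The shares called and over 1.5-fold apart lay below those of all genes, and both medians lay slightly above. These differences were not tested.

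Gdf5 and Id4 were the genes called, both higher in replicate 2, a call that 1.67% of all genes compared received in that direction. Gdf5 (chr2:155941023-155945367, minus strand) was 1.34-fold higher, a log2 difference of 0.43 against a limit of 0.37 at its level. The other 4 joint markers summed to 331 and 414 TPM. Of these 4, 3 were higher in replicate 2, against 50.0% of all genes compared, and none was beyond the limit for its level. Sfrp2, the highest of them, was at 209 and 291 TPM, and Osr2 at 92.2 and 90.2 TPM. Their part in the Gdf5 difference was not tested. Id4 (chr13:48261228-48266026, plus strand) was 1.39-fold higher, with a log2 difference of 0.473 against a limit of 0.470, and was not called with 40 in place of 20 bins of level. On the opposite strand Gm15557, which overlaps Gdf5, was at 0.20 and 0.11 TPM, and A330033J07Rik, which overlaps Id4, at 0.35 and 0.18 TPM. Gm49291 also overlaps Id4 there and had no value, so its level is unknown. Gdf6 was the gene over 1.5-fold apart, 1.72-fold higher in replicate 2, as were 3.12% of all genes by over 1.5-fold. Its log2 difference of 0.78, on 72 and 155 counts, lay within the limit of 1.90 at its level.

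The largest differences in the other direction were those of Mstn and Inhba, and neither was called. Mstn was 1.40-fold higher in replicate 1, a log2 difference of -0.49 against a limit of 0.57, and Inhba was 1.36-fold higher in replicate 1, at -0.44 against 0.47. Skeletal muscle markers moved the same way: Acta1, the highest, was at 2862 and 779 TPM and Mylpf at 972 and 330.0 TPM, with none of the 10 at 0. Bmp3, expressed in bone, was 1.20-fold higher in replicate 1, beside osteoblast markers such as Ibsp at 388 and 226 TPM and Spp1 at 286 and 118 TPM. Eng and Acvrl1 were 1.12-fold and 1.1-fold higher in replicate 1. All 8 endothelial markers were higher there too, against 50.0% of all genes compared, with a summed level of 298 and 255 TPM. They were led by Egfl7 at 103 and 88.7 TPM and Pecam1 at 46.1 and 36.4 TPM. Neither Eng, Acvrl1 nor any of the 8 markers was beyond the limit for its level. The part of these cell types in the gene differences was not tested.

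The Smads leaned the other way. Of the 7 compared, 6 were higher in replicate 2, against 50.0% of all genes, with a median of 0.16 and no call. Smad7 had the largest difference at 0.47, followed by Smad6 at 0.39 and Smad3 at 0.32. Smad2 stood at -0.02, and its sign turned with CPM scaling and with posterior mean TPM. Receptors were higher in replicate 2 in 8 of 12 cases, ligands in 9 of 17 and antagonists and modulators in 6 of 12. The 2 pools thus gave nearly the same levels for these groups, and each Smad lay within the limit for its level.

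**Figure D3:**
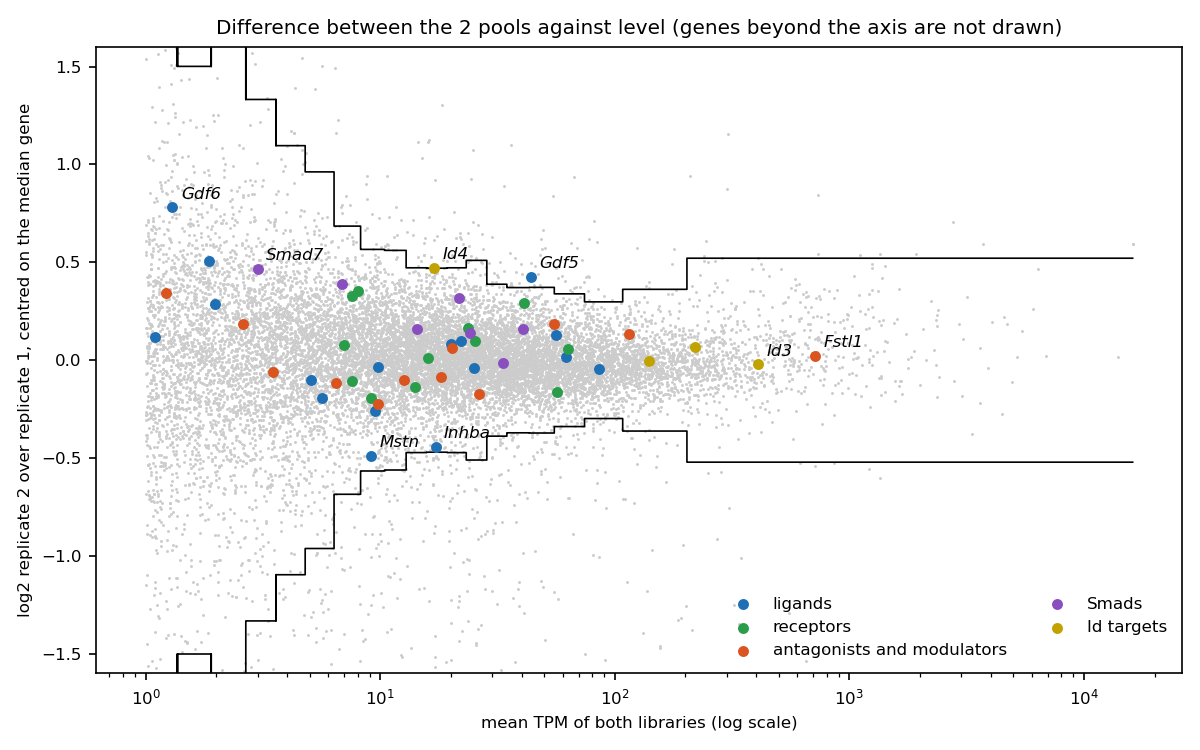
Centred log2 difference of replicate 2 over replicate 1 against mean TPM on a log scale for genes with a symbol and a mean of at least 1 TPM (grey) and 52 pathway genes (coloured by role); black steps are the 95th percentile of the absolute difference in each of 20 bins of level. Gdf5 lies outside the steps, Id4 lies on them, and Mstn and Inhba lie inside.

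The deposited tables also give an interval for each posterior mean TPM, which covers counting and read assignment within a library, not differences between embryos. Intervals of the libraries did not overlap for 18 of the 52 genes (34.6%), against 23.2% of all genes compared. At a mean of at least 10 TPM this held for 11 of 31 genes (35.5%), against 29.5%. Among these 11, Bmpr1a had intervals of 35.2 to 38.1 and 42.6 to 45.7 TPM and Smad3 of 18.4 to 21.1 and 22.8 to 25.1 TPM. Both shares were above those of all genes, and whether they differ was not tested.

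Other genes of the pathway were read from lists that do not overlap the 54. Of 64 listed genes 63 had a row, all but Gdf1. At or above 1 TPM in both libraries were 43, against 34.6% of all gene rows. Of the 45 compared between pools, 2 were beyond the limit for their level, against 5% of all genes, and 2 were over 1.5-fold apart, against 8% of all genes. Other ligands were scarce: 3 of 14 reached 1 TPM in both libraries, against 34.6% of all gene rows. Highest was Inha, the inhibin subunit, at 9.48 and 10.1 TPM. Lefty1, a Nodal inhibitor, was at 3.39 and 3.15 TPM and Gdf9, known from the ovary, at 2.40 and 2.15 TPM. Bmp10 had no reads, which allows up to 3 counts in each library, and Gdf2, the endothelial ligand BMP9, had 0 and 1 counts.

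The list of other receptors and co-receptors also held the latent TGF-beta binding proteins, which hold TGF-beta in the matrix and are not receptors. Ltbp1 was at 55.7 and 64.9 TPM, Ltbp4 at 62.4 and 54.1 TPM and Ltbp3 at 24.1 and 29.0 TPM. Ltbp1 and Ltbp4 thus lay near the level of Tgfb2 over all its transcripts. On coding transcripts alone Tgfb2 was at 31.2 and 32.9 TPM, below these gene levels of Ltbp1 and Ltbp4. Lowest were Acvr1c at 0.15 and 0.04 TPM and Tdgf1 at 0.42 and 0.52 TPM. Hjv, a BMP co-receptor of skeletal muscle and liver listed as Hfe2, was 2.12-fold higher in replicate 1 and beyond its limit, beside the muscle markers given above. Amhr2, the receptor of anti-Müllerian hormone, was 2.71-fold higher in replicate 1 on 43 and 19 counts, within its limit; these 2 genes of the list were over 1.5-fold apart and are named after their values were seen.

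Of 14 other antagonists and modulators, 9 reached 1 TPM in both libraries, against 34.6% of all gene rows. None was called, against 5% of all genes compared. Nbl1, a BMP antagonist of the DAN family, was at 131 and 122 TPM, Bmp1, a protease that cleaves chordin and procollagen, at 62.1 and 59.7 TPM and Kcp at 22.3 and 21.2 TPM. Nbl1 was thus higher than Nog, Grem1 and Chrd together. Lowest were Vwc2l at 0.01 and 0.03 TPM and Cer1 at 0.19 and 0.16 TPM. All 13 intracellular regulators reached 1 TPM, led by the corepressors Tgif1 at 51.1 and 52.5 TPM and Tgif2 at 41.5 and 43.3 TPM and the kinase adaptor Tab1 at 28.4 and 27.0 TPM. Lemd3 at 2.35 and 3.13 TPM and Zfyve9 at 4.24 and 5.19 TPM were lowest. Of these 13 genes 12 were higher in replicate 2, against 50.0% of all genes compared. Their median was 0.19, against 0 over all genes, and none was called.

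The 9 transcripts commonly read as pathway output that were compared between the pools were at or above 10 TPM in both libraries. The highest were Cdkn1a, a cell cycle inhibitor, at 339 and 225 TPM, Msx1, a BMP-responsive homeobox gene, at 131 and 113 TPM and Tgfbi, a TGF-beta-induced matrix protein, at 89.5 and 100 TPM. Lowest of these 9 was Runx2, the osteoblast factor, at 14.9 and 10.7 TPM. Cdkn1a was the gene of this list beyond its limit, 1.48-fold higher in replicate 1. Of the 9, 7 were higher in replicate 1, against 50% of all genes compared. Of the 4 Id genes, Id2 and Id4 were higher in replicate 2, by 0.07 and 0.47, and Id1 and Id3 stood at -0.01 and -0.02.

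Transcript tables showed which forms of the genes were present. Of the 54 genes 33 had at least 2 listed transcripts, and 20 of these had a mean of at least 10 TPM. The leading transcript was the same in both libraries for 19 of the 20, and it held at least 90% of the gene's TPM in both libraries for 9, among them Smad1, Smad3, Smad4, Smad5, Id1 and Id3. The share of the leading transcript moved by a median of 2.23 percentage points between the libraries. Transcripts not typed as protein coding held over 10% of the level in 7 of the genes at 10 TPM or more.

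Tgfb2 was the gene whose leading transcript changed. Tgfb2-205, a retained-intron transcript of 898 nt, was at 25.4 and 20.8 TPM on 453 and 453 counts, and the coding Tgfb2-201 of 5116 nt was at 22.4 and 23.0 TPM on 2502 and 3144 counts. Non-coding forms made up 48.3% of the Tgfb2 level per length, although Tgfb2-205 held 453 of the gene's 3700 counts in replicate 1 and 453 of 4650 in replicate 2. Fstl1 had a processed transcript, Fstl1-202, at 20.5% and 20.8% of its level, so its coding form stood at 545 TPM in both libraries. Of the 20 genes at 10 TPM or more, Fstl3 moved most: its coding form Fstl3-201 made up 68.2% in replicate 1 and 88.7% in replicate 2, as the processed transcript Fstl3-202 went from 29.2% to 7.61%. Tgfbr3-204, a retained intron, went from 14.2% to 25.9% of Tgfbr3, and the retained intron Bmp7-202 from 18.5% to 24.7% of Bmp7. The deposited TPM intervals overlapped between the libraries for Tgfbr3-204, at 1.336 to 5.001 and 4.601 to 8.028, and for Bmp7-202, at 2.54 to 5.41 and 4.06 to 6.94, as they did for Tgfb2-205 and Fstl3-201. Those of Fstl3-202, at 3.42 to 7.70 and 0.28 to 3.11, did not overlap. Eng was spread over several coding forms, led by Eng-201 at 64.7% and 61.2%, Eng-205 at 15.6% and 22.6% and Eng-202 at 14.8% and 9.62%.

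**Figure D4:**
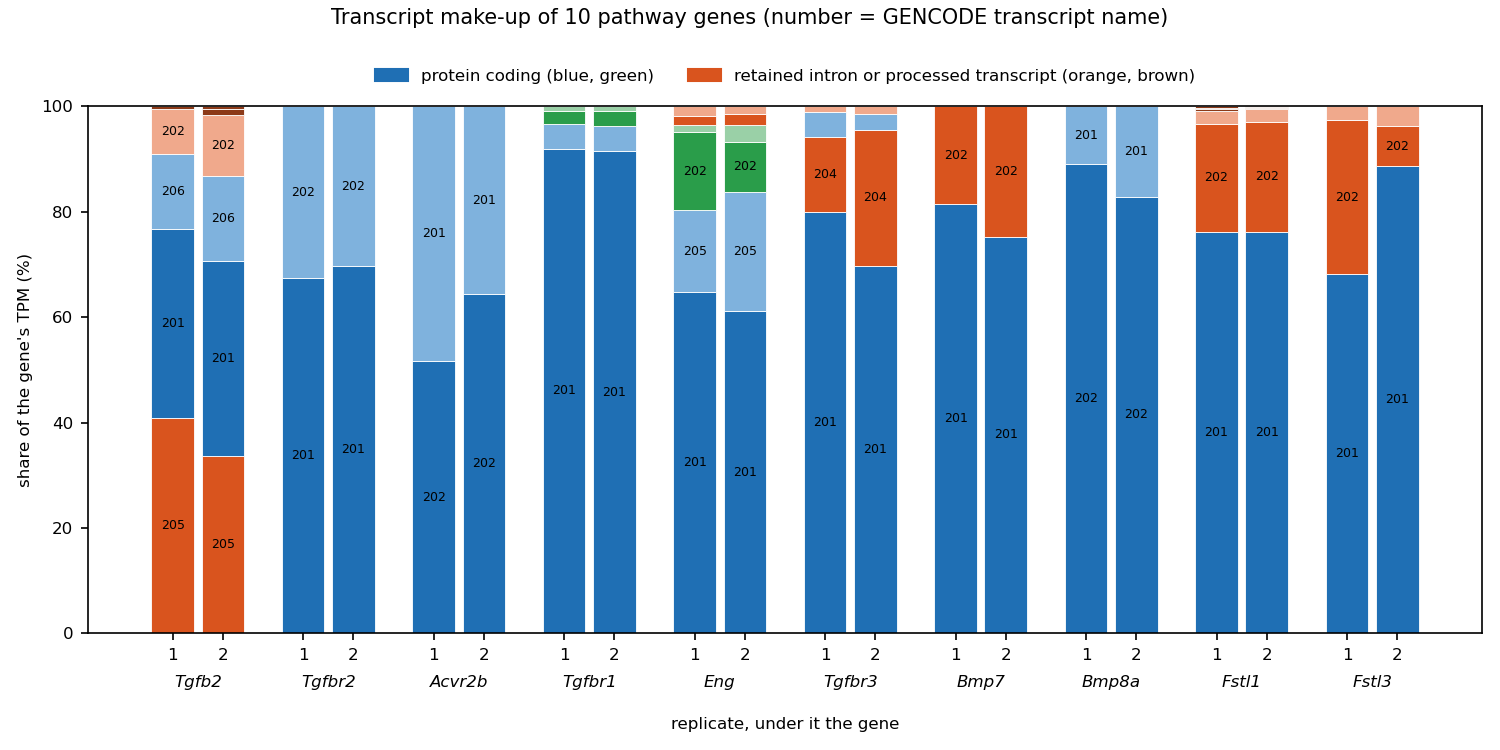
Share of each transcript in its gene's TPM, in percent, for 10 pathway genes in replicates 1 and 2; blue and green are protein-coding transcripts, orange and brown are not, and numbers are GENCODE transcript names. Non-coding Tgfb2-205 holds 40.9% and 33.6% of Tgfb2, and Fstl3-202 shrinks between the replicates.

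In 5 of the genes the coding transcripts differed by a short in-frame segment, which changes the protein. The segments are printed in capitals with 18 coding bases on either side in lower case, from GENCODE transcripts on GRCm38. All are coding parts of exons. They lie at chr1:186690721-186690804 on the minus strand (Tgfb2, 84 nt), chr9:116158271-116158345 on the minus strand (Tgfbr2, 75 nt), chr9:119428201-119428224 on the plus strand (Acvr2b, 24 nt), chr4:47393247-47393258 on the plus strand (Tgfbr1, 12 nt) and chr4:123315805-123315843 on the minus strand (Bmp8a, 39 nt).
Tgfb2: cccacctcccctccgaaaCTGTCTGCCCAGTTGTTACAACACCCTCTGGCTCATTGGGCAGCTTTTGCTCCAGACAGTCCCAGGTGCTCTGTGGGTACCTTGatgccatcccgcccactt
Tgfbr2: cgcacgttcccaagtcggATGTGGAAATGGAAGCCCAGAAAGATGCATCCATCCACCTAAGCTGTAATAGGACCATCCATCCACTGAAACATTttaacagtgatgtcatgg
Acvr2b: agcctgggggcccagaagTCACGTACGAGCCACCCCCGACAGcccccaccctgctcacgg
Tgfbr1: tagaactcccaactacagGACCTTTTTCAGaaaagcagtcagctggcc
Bmp8a: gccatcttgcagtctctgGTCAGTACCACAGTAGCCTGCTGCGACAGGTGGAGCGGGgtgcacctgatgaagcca
Each length is a multiple of a codon, so the reading frame continues past the segment: it adds 28 codons in Tgfb2, 25 in Tgfbr2, 8 in Acvr2b, 4 in Tgfbr1 and 13 in Bmp8a.

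The 5 segments were used to different degrees. In Tgfbr2 the form with the segment, known as the B form of the receptor, was at 20.4 and 19.4 TPM and the form without it at 42.2 and 44.6 TPM. The segment was thus present in 32.6% and 30.2% of the receptor's coding level. The deposited lengths of these transcripts differ by 75 nt, the length of the segment, whereas the later annotation from which the sequence was read gives them other untranslated ends. In Tgfb2 the form with the segment was at 8.84 and 9.96 TPM, against 22.4 and 23.0 TPM without it, a share of 28.3% and 30.2%. The Tgfb2 transcripts also differ outside the coding part, since the form with the segment is 1631 nt shorter. Both the ligand and the receptor thus carried their segment in a minority of coding transcripts, with a spread between pools of 1.34 and 1.68 percentage points (SD, n = 2).

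Tgfbr1 showed the opposite balance. The form with its 12 nt was at 22.6 and 23.7 TPM and the form without them at 0.63 and 0.76 TPM, so 97.3% and 96.9% of these 2 forms carried the segment. These Tgfbr1 transcripts also differ by 2895 nt in deposited length, so the share need not rest on reads of the segment. Acvr2b was split more evenly, with 5.08 and 5.44 TPM for the form with 24 nt and 4.76 and 3.02 TPM for the form without. Its share went from 51.6% to 64.3% between the replicates, but the deposited intervals overlapped for both forms, and the form with the segment is 33 nt shorter. For Bmp8a the form with 39 nt was the minor one, at 10.9% and 17.1%, on 34 and 56 counts. It is subject to the shared sequence with Bmp8b, and the forms differ by 488 nt in deposited length. Acvr2b and Bmp8a were under 10 TPM and were chosen for display after their values were seen.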

How the data were processed

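Total RNA-seq was measured in 2 pools of limb tissue. Per the file headers, the deposited gene and transcript tables give an expected count, TPM, FPKM, posterior mean TPM with an interval, and for transcripts a percent of the gene's expression. Per the labels the assembly is mm10, and the deposited sample records name annotation M4. No source used here names the aligner, the counter, the use of strand or the interval's confidence level. The authors' expected counts were also turned into CPM with TMM scaling, and the deposited FPKM and percent values were also used as alternatives. Spike-in and non-mouse rows were left out, 26345 in all.

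Symbols, coordinates, transcript types and sequences came from GENCODE M21 on GRCm38, matched by identifier with the version dropped, and older symbols through RefSeq. Tables were handled with Python 3 scripts (numpy and pandas). A pool difference was the log2 ratio of replicate 2 to replicate 1 with 0.1 TPM added to each, less its median over all genes (-0.02), for genes with a mean of at least 1 TPM. The calling limit was the 95th percentile of the absolute difference in 20 bins of level. The script was tested on simulated data. The median gene and the limit were taken over all 15571 such genes. No p-value is given, since there is 1 group. Whether the pools share litters is not stated, so the spread is that between these samples.

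The members and lists were chosen with earlier results of these data known. All 54 members are named. Of each other pathway list the 3 highest and 2 lowest by mean TPM are named, except 1 gene that is not reported here, and of each marker list the 2 highest where it stands beside a member. Lists of osteoclast, chondrocyte, hypertrophic chondrocyte, tendon, epidermis, macrophage, Schwann cell, neuron and erythroid genes were also read. Their summed levels in replicates 1 and 2 were 212 and 126, 1230 and 1283, 148 and 163, 767 and 694, 7442 and 7486, 295 and 245, 37.4 and 33.3, 13.9 and 14.7, and 16540 and 17030 TPM in that order.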

Additional observations from a re-analysis of the deposited data

How the results depend on the processing

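With 1 group of 2 pools, a difference between the libraries mixes embryos, dissection and library preparation, and low genes such as Gdf6, Gdf7, Bmp6 and Smad9 rest on few counts. No paired analysis was possible because there is 1 group and no comparison between groups. The number of members at or above 10 TPM in both libraries, 31, was 26 on FPKM, 31 on coding transcripts alone (chosen after seeing the data), and 31 to 34 when either replicate was left out. The number over 1.5-fold apart, 1 (Gdf6), was 0 with a pseudocount of 1, against 5.41% of all genes compared in that setting. It was 0 of 31 with a minimum of 10 TPM, against 2.8%, and 0 of 49 on FPKM, against 6.34%. With TMM-scaled CPM, which added Smad7, it was 2, against 6.58%. The number beyond the limit for their level, 2, was 1 with 40 bins, which lost Id4. It was 2 with 10 bins, other pseudocounts, CPM and posterior means. The share of all genes called was 5% to 5.14% in these settings. The median difference of the members ranged from 0.04 without centring to 0.10 on posterior means. The number of pairs over 1.5-fold apart, 18, ranged from 17 to 19 over the settings that kept both libraries and was 18 and 20 without replicate 1 and replicate 2. On counts not divided by length 4 log2 ratios changed sign: Smad1 to Smad5 from 0.76 to -0.34, Bmp4 to Bmp2 from 0.32 to -0.75, Nog to Grem1 from 0.42 to -0.91 and Smad2 to Smad3 from 0.64 to -0.30. The last 3 pairs were not over 1.5-fold apart in both libraries. The ratios of Gdf5, Gdf6 and Smad5 to their low relatives moved with the pseudocount, as given above, and FPKM levels were 0.64 times TPM at the median. The sign of the pool difference depended on the scaling for Bmp4, Tgfb2, Acvr2a, Smad2, Id1 and Id3, all within 0.07 of 0.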
